A study of Mus musculus with 6 samples.

Results

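Integrins are the cell surface receptors through which macrophages hold on to matrix, to other cells and to complement-coated particles. Transcripts of 10 integrin subunits, 6 alpha chains and 4 beta chains, were taken by gene symbol from a deposited table of 25124 genes: Itga4, Itga5, Itgal, Itgam, Itgav, Itgax, Itgb1, Itgb2, Itgb3 and Itgb5. They were measured by poly(A) RNA-seq in 6 libraries of RAW264.7, a macrophage-like line made from a virus-induced mouse leukaemia. In 3 libraries the genotype was given as E4BP4 knockout and in 3 as control; E4BP4 is the bZIP transcriptional repressor encoded by Nfil3. Both groups were grown without treatment in medium with 25 mM glucose at fewer than 15 passages. How the knockout was made, whether the cells were 1 clone or a pool, and whether the replicates were separate cultures are not given in the sources used here, and each p-value then measures only how far these 6 libraries spread, which may be technical.

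Whole reads could be recovered from the deposited TPM values (transcript abundance, reads scaled by transcript length and library), and came to 15615636 to 19867732 per library. Nfil3 itself was higher in the libraries labelled knockout, with a mean of 102.8 TPM against 30.1 TPM (log2 fold change 1.74, limma adjusted p = 4.96e-09), so its transcript level goes against a loss of transcript under that label. Directions therefore refer to the labels. Whether the labels were exchanged was not tested, and an exchange would invert every direction given. The macrophage identity was checked with 8 markers, all of which reached 1 TPM in at least 3 libraries. Their summed level was 3944 to 4075 TPM under the knockout label and 2795 to 3009 TPM in the controls. Lyz2 alone was at 2218 TPM against 1069 TPM. Of the 8, 3 were called higher and 5 lower, beside 26.7% and 23.4% of all tested genes. None of the T cell, B cell, fibroblast, epithelial or endothelial markers reached 1 TPM in at least 3 libraries. Of 6 neutrophil markers S100a8 did, at 5.48 TPM against 5.29 TPM, and S100a9 and Mpo were at 0. Of 5 platelet and megakaryocyte markers, Gp1bb and Pf4 did, and the 5 summed to 231.9 to 243.0 TPM under the knockout label, against 375.1 to 440.2 TPM. Nearly all of that sum was Pf4, at 235.5 TPM against 410.9 TPM, while Gp1bb was at 0.65 TPM against 1.52 TPM. The part of these marker levels in the results was not tested.

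An integrin is a pair of 1 alpha and 1 beta chain, and neither chain reaches the cell surface efficiently without its partner. The beta 2 chain (Itgb2, CD18) is restricted to leukocytes and pairs with Itgal (CD11a, forming LFA-1), Itgam (CD11b, forming the complement receptor Mac-1), Itgax (CD11c) and Itgad (CD11d). The beta 1 chain (Itgb1) pairs with many alpha chains, among them Itga4 and Itga5, the fibronectin receptor chain. Itgav pairs with Itgb1, Itgb3 or Itgb5 to bind proteins that carry the RGD motif. Integrins rest in a bent form, and talin and kindlin binding to the beta tail opens them.

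Of the 10 subunits, 9 passed the filter of at least 1 TPM in at least 3 libraries and were tested with limma on log2(TPM + 1), with p-values adjusted over all 11257 genes tested. Itgax, Itgb5 and Itgal rose, Itgb2, Itgav, Itga5 and Itgam fell, and Itgb1 and Itga4 did not pass the test. Itgb3 was too low to test. These 7 calls stand beside a background in which 50.1% of all tested genes were called, 26.7% higher and 23.4% lower. The 7 called subunits were also the tested ones whose libraries did not overlap between groups, a property of 58.5% of all tested genes. Itgax passed the filter only through the libraries in which it was high, so its place among the tested genes already required a difference. The median log2 fold change of the 9 was -0.10, beside 0.017 for all genes tested. In a bulk sample, fewer cells expressing a gene and less RNA per cell cannot be told apart.

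**Figure D1:**
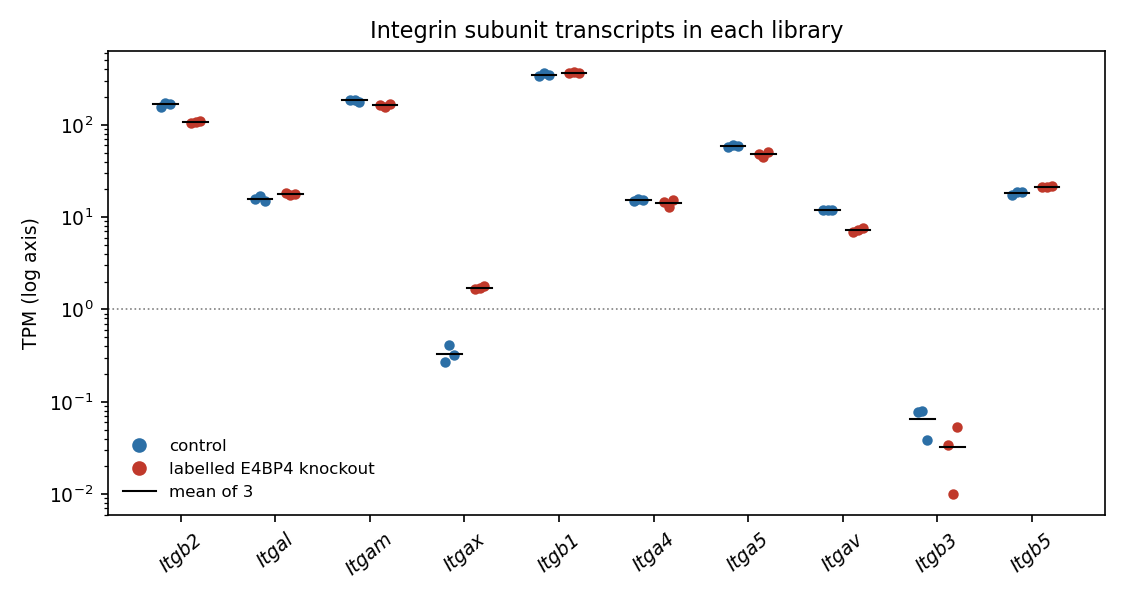
TPM of 10 integrin subunits (log axis) in each of 3 control libraries and 3 libraries labelled E4BP4 knockout, with black lines at the group means. Itgb2 and Itgav sit lower under the knockout label, Itgax rises from below to above the dotted line at 1 TPM, and Itgb3 stays below 0.1 TPM in every library.

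Itgam and Itgax lie next to each other on chromosome 7, and moved in opposite directions, while Itgav had the lowest log2 fold change of the 9 tested subunits; the 250 bases before the start of these 3 genes are shown for that reason. They are from RefSeq for GRCm38.p6 (the mm10 build), read 5′ to 3′ on the plus strand, which is the gene strand of all 3. Capitals mark GAGGAA, the core of sites bound by the myeloid factor PU.1, or the same letters on the opposite strand. The windows are chr7:128062390-128062639 for Itgam, chr7:128129300-128129549 for Itgax and chr2:83724147-83724396 for Itgav.
Itgam: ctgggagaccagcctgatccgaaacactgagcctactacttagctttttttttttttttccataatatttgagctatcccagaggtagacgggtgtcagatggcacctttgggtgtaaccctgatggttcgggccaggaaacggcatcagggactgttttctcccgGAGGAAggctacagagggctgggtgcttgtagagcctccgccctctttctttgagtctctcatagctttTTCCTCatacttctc
Itgax: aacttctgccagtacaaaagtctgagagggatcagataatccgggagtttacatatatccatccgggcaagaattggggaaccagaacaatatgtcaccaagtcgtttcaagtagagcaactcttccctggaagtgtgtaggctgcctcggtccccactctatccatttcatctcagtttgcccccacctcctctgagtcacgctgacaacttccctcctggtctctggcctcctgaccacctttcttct
Itgav: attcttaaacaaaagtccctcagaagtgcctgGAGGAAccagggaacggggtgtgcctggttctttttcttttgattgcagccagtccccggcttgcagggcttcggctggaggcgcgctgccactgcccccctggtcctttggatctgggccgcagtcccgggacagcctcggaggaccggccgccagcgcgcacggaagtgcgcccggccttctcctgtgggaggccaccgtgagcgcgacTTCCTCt
Itgam carries the motif 84 and 15 bases before its start, and Itgav 218 and 7 bases before it. The Itgax window holds none.

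RefSeq promoter windows of 300 bases (250 before to 50 after the start) were matched by symbol for 7 of the 10 subunits. Itgb2, Itgal and Itgb3 had no matched window and were not searched. Searched on both strands, GAGGAA was in 4 of the 7 (Itgam, Itgb1, Itga5 and Itgav), beside 28.3% of all 32851 windows. The GC box GGGCGG was in 6 of the 7, all but Itgax, beside 35.7% of all windows, and the TATA box TATAAA was in 0 of the 7, beside 13.6%. E4BP4 binds the D-box, here searched as TTACGTAA, TTATGTAA or TTATATAA. None of the 7 windows held any of these forms, beside 1.59% of all windows. At so low a share, finding none in 7 windows says little. These matches describe letters in the windows and not binding. The 3 printed genes also differed in base composition over the 300 bases: the Itgav window was 67.3% GC with 24 CpG dinucleotides, the Itgam window 50.3% GC with 6, and the Itgax window 50% GC with 5, while the median over all windows was 52.7% GC with 7.

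Itgb2, the shared beta chain of the leukocyte integrins, fell. It lies on the plus strand at chr10:77530370-77565708 (mm10), its deposited transcript is NM_008404, and its GENCODE M21 transcript has 16 exons. Itgb2 was at 105.7, 107.7 and 109.4 TPM with the knockout label, against 157.2, 174.0 and 167.1 TPM in the 3 controls. The lowest control lay well above the highest library labelled knockout. The mean was 107.6 ± 1.86 TPM (SD, n = 3) against 166.1 ± 8.42 TPM (SD, n = 3), 1.54-fold lower. The log2 fold change was -0.62 (SE 0.0428, 95% interval -0.72 to -0.52, limma adjusted p = 3.33e-06). Over the 6 libraries 35839 reads fell on Itgb2, so counting error is small beside the difference. Its 24 tested neighbours within 1000000 bases had a median log2 fold change of -0.14. Of them, 2 were called higher and 11 lower, beside 26.7% and 23.4% of all tested genes.

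Itgam, the alpha chain of the complement receptor Mac-1, fell by less than Itgb2. The gene (plus strand, chr7:128062640-128118491, NM_001082960, with 30 exons in GENCODE M21) was at 163.9, 156.1 and 170.0 TPM with the knockout label, against 186.3, 187.3 and 177.1 TPM in the 3 controls. The groups did not overlap, but the gap between the lowest control and the highest library labelled knockout was narrow. The means were 163.3 ± 6.99 and 183.5 ± 5.61 TPM (SD, n = 3 each), 1.12-fold lower, with a log2 fold change of -0.17 (SE 0.0421, 95% interval -0.26 to -0.073, limma adjusted p = 0.00842). Of its exonic bases, 3450 of 4682 are shared on the same strand with the gene model Gm49368 in the GENCODE M21 annotation, so reads of that model and of Itgam could not be told apart.

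Itgax, the CD11c chain that is also used as a dendritic cell marker, rose from a very low level. It starts 11059 bases after the end of Itgam on the same strand (chr7:128129550-128150657, NM_021334, with 30 exons in GENCODE M21). Itgax was at 1.67, 1.69 and 1.79 TPM with the knockout label, against 0.269, 0.411 and 0.320 TPM in the 3 controls. These values rest on 103, 114 and 117 reads against 17, 25 and 17 reads, or 334 in all (95% Poisson interval 299 to 372) against 59 (44.9 to 76.1), which covers counting error only. Every library labelled knockout had more than any control. Mean TPM was 5.15-fold higher, 1.72 ± 0.0669 against 0.333 ± 0.0719 TPM (SD, n = 3 each). Because 1 was added before the log, the fitted log2 fold change was only 1.03 (SE 0.106, 95% interval 0.79 to 1.26, limma adjusted p = 4.06e-05); it was 2.08 with 0.1 added and 2.33 on recovered reads with limma-voom. The authors' deposited table gave 2.34 for Itgax, with an adjusted p of 1.12e-16.

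Averaged over all 6 libraries, the level of Itgax was at percentile 1.14 among the tested genes. The summed level of 6 dendritic cell markers was 1.46 to 1.56 TPM under the knockout label and 1.42 to 1.68 TPM in the controls, with only Zbtb46 of the 6 reaching 1 TPM and Ccr7 at 0 throughout. Of the 50-base stretches of the Itgax transcript, 9.61% also occur in its neighbour Itgad, which had 4 recovered reads in all 6 libraries together, all under the knockout label. Itgax and Itgam shared no identical stretch longer than 16 bases, so 50-base matches between them do not occur.

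Itgal, the LFA-1 alpha chain that binds ICAMs on other cells, rose slightly. It lies on the same chromosome (plus strand, chr7:127296260-127335137, NM_001253873, with 31 exons in GENCODE M21), with 727503 bases between its end and the start of Itgam. Itgal was at 18.4, 17.6 and 17.7 TPM with the knockout label, against 15.6, 16.9 and 14.9 TPM in the 3 controls. The groups did not overlap, and control replicate 2 came closest to the other group. Means were 17.9 ± 0.445 and 15.8 ± 1.00 TPM (SD, n = 3 each), 1.13-fold higher, with a log2 fold change of 0.17 (SE 0.0547, 95% interval 0.047 to 0.29, limma adjusted p = 0.0272). Of the 7 calls, this was the only one lost on leaving out 1 library. It was lost when any 1 of the 3 libraries labelled knockout, control replicate 1 or control replicate 3 was left out (adjusted p 0.0503 to 0.101), and kept without control replicate 2 (adjusted p = 0.0100).

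The 3 alpha chains of the beta 2 family share chromosome 7, whose genes were shifted upward as a whole. Of 878 tested genes on that chromosome, 59.2% were called higher and 8.31% lower, beside 26.7% and 23.4% of all tested genes. The chromosome's median log2 fold change was 0.24, against 0.00071 over the other chromosomes. Within 1000000 bases of Itgal, 50 of 85 tested neighbours were called higher and 3 lower, and within the same distance of Itgam 35 of 56 were higher and 3 lower. The decrease of Itgam thus ran against its surroundings: 9.91% of the chromosome's tested genes had a lower log2 fold change. Itgal sat below the chromosome's median, and 39.1% of its genes were lower still, while 1.59% exceeded Itgax. With each library centred on the tested genes of the chromosome, the log2 fold change was -0.075 for Itgal (limma adjusted p = 0.258), -0.41 for Itgam (5.86e-05) and 0.78 for Itgax (0.000254). The rise of Itgal therefore turned direction and did not pass the test relative to its chromosome. The part of the chromosome's shift in these values was not tested further.

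**Figure D2:**
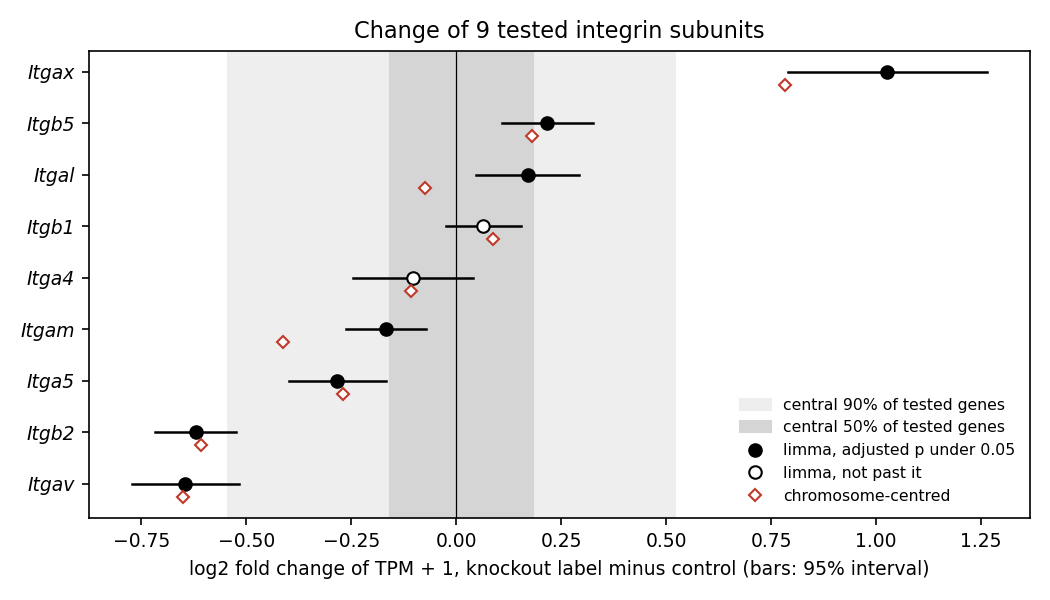
Log2 fold change of TPM + 1 (knockout label minus control) for the 9 tested subunits, with 95% intervals, filled circles for adjusted p under 0.05, open circles for the rest, and diamonds for the chromosome-centred values. The grey bands hold the central 50% (-0.16 to 0.18) and 90% (-0.54 to 0.52) of all tested genes; Itgax, Itgb2 and Itgav lie outside the wider band, and the diamond of Itgal crosses 0.

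Itgb1, the most abundant subunit, did not pass the test. The gene (plus strand, chr8:128685654-128733579, NM_010578, with 16 exons in GENCODE M21) encodes the beta chain of most matrix-binding integrins. Itgb1 was at 359.8, 374.5 and 361.8 TPM with the knockout label, against 337.8, 365.7 and 345.4 TPM in the 3 controls. Control replicate 2 lay within the range of the other group, so the groups overlapped. Means were 365.4 ± 7.98 and 349.6 ± 14.4 TPM (SD, n = 3 each), a log2 fold change of 0.064 (SE 0.0395, limma adjusted p = 0.207). With 138547 reads behind it, the 95% interval of -0.025 to 0.15 was narrow, and it leaves room for a small increase but not for a change as large as that of Itgb2.

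Itga5, which pairs with Itgb1 to form the main fibronectin receptor, fell. It is on the minus strand at chr15:103344286-103366791 (NM_010577, with 30 exons in GENCODE M21). Itga5 was at 48.3, 45.0 and 51.4 TPM with the knockout label, against 57.6, 60.7 and 58.2 TPM in the 3 controls. All 3 controls were higher than every library labelled knockout. The means, 48.2 ± 3.18 and 58.8 ± 1.66 TPM (SD, n = 3 each), differed 1.22-fold, with a log2 fold change of -0.28 (SE 0.0513, 95% interval -0.40 to -0.17, limma adjusted p = 0.00141).

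Itga4, the alpha chain of VLA-4 that binds VCAM-1 and fibronectin, did not pass the test. The gene lies on the plus strand at chr2:79255426-79333114 (NM_010576, with 28 exons in GENCODE M21). Itga4 was at 14.4, 12.9 and 15.4 TPM with the knockout label, against 14.9, 15.8 and 15.3 TPM in the 3 controls, so the groups overlapped. The log2 fold change was -0.10 (SE 0.0636, 95% interval -0.25 to 0.040, limma adjusted p = 0.207). It passed the test as lower on recovered reads with limma-voom (-0.13, adjusted p = 0.0277) and on the authors' stabilized log2 values with limma (-0.11, adjusted p = 0.0361). The Itga4 exons overlap those of Cerkl on the opposite strand over 1124 of 9767 bases. Cerkl was at 2.44 TPM against 2.05 TPM, and the library kit as named does not mark strand, so reads in the overlap could not be told apart.

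Itgav, the alpha chain of the vitronectin-type receptors, fell. It lies on the plus strand at chr2:83724397-83806917 (NM_008402, with 30 exons in GENCODE M21). Itgav was at 6.85, 7.24 and 7.67 TPM with the knockout label, against 11.89, 11.85 and 11.96 TPM in the 3 controls. The 3 controls were nearly equal, and all were above the other group. Means were 7.25 ± 0.408 and 11.9 ± 0.0577 TPM (SD, n = 3 each), 1.64-fold lower, with a log2 fold change of -0.65 (SE 0.0565, 95% interval -0.77 to -0.52, limma adjusted p = 1.45e-05). Its few tested neighbours mostly moved the other way. Of 9 within 1000000 bases, 8 were called higher and 1 lower, beside 26.7% and 23.4% of all tested genes. The median log2 fold change of the 9 was 0.36.

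Itgb5, a beta chain that pairs with Itgav and takes part in uptake of apoptotic cells, rose. It lies on the plus strand at chr16:33829665-33949338 (NM_001145884, with 15 exons in GENCODE M21). Itgb5 was at 20.994, 21.064 and 22.002 TPM with the knockout label, against 17.4, 18.8 and 18.5 TPM in the 3 controls, without overlap. Means were 21.4 ± 0.563 and 18.2 ± 0.728 TPM (SD, n = 3 each), 1.17-fold higher, with a log2 fold change of 0.22 (SE 0.0478, 95% interval 0.11 to 0.32, limma adjusted p = 0.00417). None of its 12 tested neighbours within 1000000 bases was called, beside 50.1% of all tested genes.

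Itgb3, the beta chain that osteoclasts use together with Itgav, was close to undetected. The gene lies on the plus strand at chr11:104608000-104670471 (NM_016780, with 15 exons in GENCODE M21). Itgb3 had 3, 1 and 5 reads under the knockout label and 7, 7 and 3 in the controls, or 9 in all (95% Poisson interval 4.12 to 17.1) against 17 (9.90 to 27.2). The intervals overlap, and a difference was not detectable at this depth. Of 8 osteoclast markers only Dcstamp, Nfatc1 and Mmp9 reached 1 TPM in at least 3 libraries. The 8 summed to 110.0 to 125.9 TPM under the knockout label, against 45.6 to 47.5 TPM in the controls. Most of that sum was Mmp9, at 101.4 TPM against 35.8 TPM. Dcstamp was at 7.55 TPM against 1.83 TPM (log2 fold change 1.60, limma adjusted p = 1.11e-06). Of the tested osteoclast markers, 2 were called higher and 0 lower, beside 26.7% and 23.4% of all tested genes. Nfatc1 did not pass the test. Acp5, the tartrate-resistant acid phosphatase used as an osteoclast marker, was at 0 in every library.

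The order of the levels per transcript length in the controls was Itgb1, Itgam, Itgb2, Itga5, Itgb5, Itgal, Itga4, Itgav, Itgax and Itgb3. Of these neighbours only Itgal and Itga4 overlapped in the controls. Under the knockout label the same order was found, and Itgal and Itga4 no longer overlapped. The summed level of the 10 subunits was 747.0 ± 8.98 TPM under the knockout label and 819.8 ± 27.9 TPM in the controls (SD, n = 3 each). Itgb1, Itgam and Itgb2 together made up 85.2% and 85.3% of it. The share of Itgb1 was 48.9 ± 1.31% against 42.6 ± 0.340%, and that of Itgb2 14.4 ± 0.110% against 20.3 ± 0.513% (SD, n = 3 each).

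Ratios of partner transcripts within 1 library show how the possible pairs were balanced. Itgal, Itgam and Itgax together came to 182.9 ± 7.16 TPM against 199.7 ± 6.48 TPM, or 1.700 ± 0.0635 against 1.204 ± 0.0715 alpha transcripts per Itgb2 transcript (SD, n = 3 each). Alpha transcripts of the beta 2 family thus exceeded Itgb2 in every library, and by more under the knockout label. Itgam made up 89.3 ± 0.377% of these alpha transcripts against 91.9 ± 0.332%, Itgal 9.79 ± 0.382% against 7.91 ± 0.301%, and Itgax 0.938 ± 0.0299% against 0.167 ± 0.0339%. On the Itgb1 side, Itga4, Itga5 and Itgav summed to 0.191 ± 0.0159 per Itgb1 transcript, against 0.246 ± 0.00428 in the controls. That sum covers only part of the alpha chains. It leaves out Itga9 (15.8 against 15.5 TPM) and Itga6 (5.99 against 11.9 TPM), and Itgav also pairs with other beta chains. Transcript ratios do not give the ratios of the proteins.

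Of 10 ratios compared, 9 did not overlap between the groups. With 3 libraries against 3, the smallest two-sided p an exact permutation test allows is 0.1, which these 9 reached (Benjamini-Hochberg adjusted over 10, p = 0.111), so none could pass a threshold of 0.05. The 10 ratios reuse the same subunits, 2 of them (Itgal and Itgax to Itgam) set an alpha chain against another, and the share of other gene pairs that do not overlap was not computed, so the count is a description. The ratio of Itgam to Itgb2 was 1.55, 1.45 and 1.55 under the knockout label and 1.18, 1.08 and 1.06 in the controls, 1.37-fold higher. That of Itgal to Itgb2 was 0.174, 0.163 and 0.162 against 0.0993, 0.0971 and 0.0893, 1.75-fold higher. The largest shift among the beta 2 pairs was that of Itgax to Itgb2, at 0.0158, 0.0157 and 0.0164 against 0.00171, 0.00236 and 0.00192, 8.06-fold higher. Its log2 difference of 3.01 was 1.12 on the authors' stabilized log2 values. All 3 beta 2 alpha chains thus stood higher relative to their beta chain under the knockout label. The 3 ratios share Itgb2, which itself fell, so they are not independent observations, and Itgam fell as well, by less. The 3 alpha chains also share chromosome 7 with its upward shift, and the part of that shift in the ratios was not tested.

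In the pairs with Itgb1, and in that of Itgav with Itgb5, the alpha chain stood lower relative to the beta chain. Itga5 to Itgb1 was 0.134, 0.120 and 0.142 under the knockout label and 0.170, 0.166 and 0.169 in the controls, 1.28-fold lower. Itgav to Itgb5 was 0.326, 0.344 and 0.348 against 0.683, 0.630 and 0.647, 1.92-fold lower, with Itgav falling and Itgb5 rising. Itgav to Itgb1 was 1.72-fold lower. Itga4 to Itgb1 was 0.0401, 0.0346 and 0.0425 against 0.0442, 0.0431 and 0.0444, 1.13-fold lower, with a narrow gap between the groups. The log2 difference of that ratio, -0.17, was -0.089 without knockout replicate 2. Neither Itga4 nor Itgb1 passed its own test. The ratio of Itgav to Itgb3 went the other way, 1.44-fold higher, but overlapped between the groups (exact permutation p = 0.7) and rests on 1 to 7 Itgb3 reads per library.

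**Figure D3:**
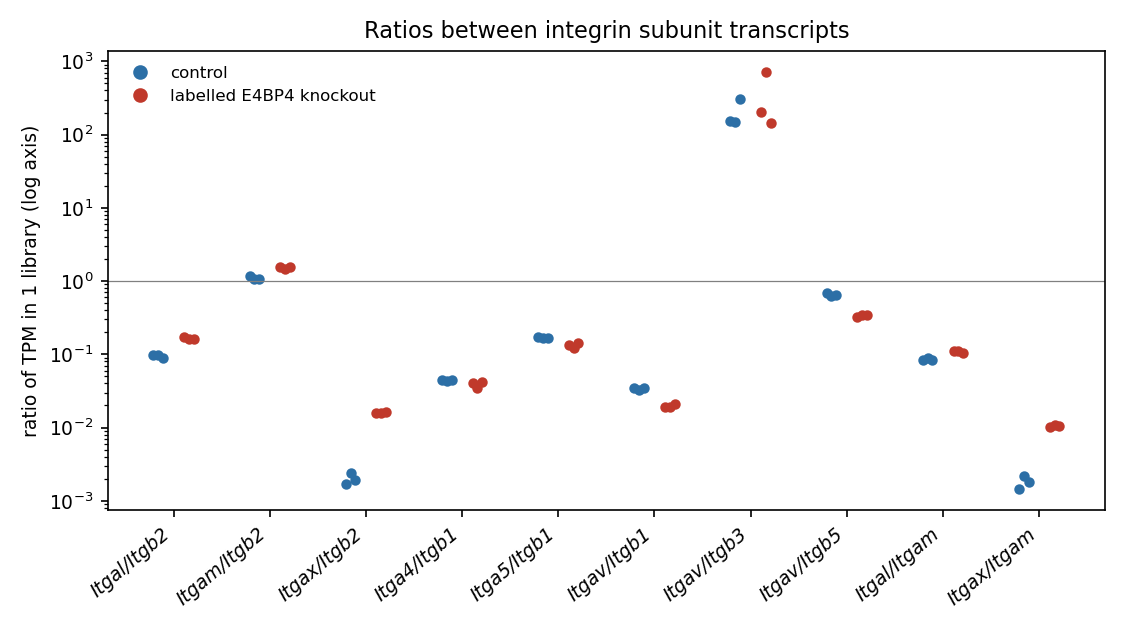
Ratios of TPM between pairs of integrin subunits (log axis), 1 point per library, for 3 control libraries and 3 libraries labelled E4BP4 knockout. The groups are apart for 9 of the 10 pairs, with Itgal, Itgam and Itgax higher relative to Itgb2, and Itgav lower relative to Itgb5; Itgav to Itgb3 overlaps.

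Of 16 other integrin subunit genes in the table, 14 did not pass the filter. Itga6, a laminin receptor chain, fell from 11.9 ± 1.14 to 5.99 ± 0.798 TPM (SD, n = 3 each), with a log2 fold change of -0.88 (limma adjusted p = 5.13e-05). Itga9, which binds tenascin and osteopontin, was at 15.8 ± 0.449 TPM against 15.5 ± 1.64 TPM in the controls and did not pass the test (log2 fold change 0.029, limma adjusted p = 0.749). Itgad was listed at 0 in all 3 controls and reached at most 0.030 TPM.

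Beyond the receptors themselves, 6 further lists covered genes that activate, anchor, carry or bind integrins. With the other subunits, the 7 lists held 126 tested genes, of which 35 were called higher and 51 lower, 68.3% against 50.1% of all genes tested. The lists were chosen with earlier results of these data known, and these counts are a description. The lists were also not matched to all genes by level. With a minimum of 5 TPM, 5035 of 9075 tested genes were called, a higher share than 50.1%.

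The first list held genes that act on the integrin tail from inside the cell. Of 25 tested activators and adaptors, 8 rose and 6 fell (median log2 fold change 0.075), and the 56% called is near the 50.1% of all genes tested. Fermt3, the kindlin of blood cells that is needed to activate beta 2 integrins, fell from 151.8 ± 3.76 to 115.7 ± 2.66 TPM (SD, n = 3 each), with a log2 fold change of -0.39 (limma adjusted p = 2.16e-05). Tln1, the main talin, was at 147.7 ± 7.41 TPM against 138.8 ± 12.96 TPM and did not pass the test (log2 fold change 0.092, limma adjusted p = 0.273). Cyth1 (cytohesin-1, which binds the beta 2 tail) fell by 0.58 on the log2 scale, and Cytip, which binds cytohesin-1, fell by 0.95. Dok2, a docking adaptor, fell by 0.81.

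Of 15 tested genes of Rap1 activation, the GTPase step that brings talin to integrins, 2 rose and 7 fell (median -0.13). The 60% called stands beside 50.1% of all genes tested. Apbb1ip (RIAM, which links Rap1 to talin) fell from 46.8 to 29.8 TPM (a log2 change of -0.63, limma adjusted p = 1.31e-05), and Rasgrp3, an exchange factor, fell from 16.8 to 10.6 TPM (-0.62, 1.30e-05). Sipa1, which turns Rap1 off, also fell (-0.46, limma adjusted p = 1.43e-05), and Rapgef2, another exchange factor, rose (0.605, 1.74e-05). Among these named genes, activators thus went in both directions, beside a lower inhibitor.

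Of 31 tested signalling kinases and phosphatases, 9 rose and 11 fell (median 0.063), so 64.5% were called, beside 50.1% of all genes tested. Ptpn12 (PTP-PEST, which removes phosphate from focal adhesion proteins) rose from 22.01 to 43.25 TPM, and Lcp2 (the adaptor SLP-76) rose from 38.5 to 53.0 TPM. Ptpn6 (the phosphatase SHP-1) fell from 262.8 to 184.5 TPM, and Rac1, a GTPase of membrane protrusion, from 165.0 to 130.2 TPM. Among 21 tested genes of trafficking and turnover, 5 rose and 12 fell (median -0.16), or 81.0% called against the same 50.1%. Mmp9, a gelatinase that is also on the osteoclast list, rose by 1.47 on the log2 scale, and Mgat5, a glycosyltransferase that branches N-glycans, rose by 0.95. Capn2, a calpain subunit, fell by 0.75, and Calr, the chaperone calreticulin, fell by 0.61.

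Of 15 tested ligands, 4 rose and 7 fell (median -0.083), with 73.3% called, beside 50.1% of all genes tested. Spp1 (osteopontin, bound by Itgav, Itga4 and Itga9 integrins) fell from 2118 to 1029 TPM (a log2 change of -1.04, limma adjusted p = 1.98e-07), and Icam2, a ligand of LFA-1, from 11.9 to 3.98 TPM (-1.38, 5.82e-07). Tgfb3, whose latency peptide is held by Itgav integrins, fell by 0.67, and C3, whose fragment iC3b is the ligand of Mac-1, rose by 0.80. Icam1, the best known LFA-1 ligand, was at 28.6 ± 1.72 TPM against 28.2 ± 1.45 TPM and did not pass the test (log2 fold change 0.021, limma adjusted p = 0.776).

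Membrane partners of integrins split evenly: of 17 tested, 7 rose and 7 fell (median 0.019). The share called was 82.4%, beside 50.1% of all genes tested. Slc3a2 (CD98, which binds beta 1 tails) rose from 122.9 to 191.1 TPM, and Cd82, a tetraspanin, from 33.0 to 53.5 TPM. Cd14, which works with Mac-1 at the cell surface, rose from 637.5 to 858.9 TPM, and Fcgr2b, an inhibitory Fc receptor, from 179.0 to 277.1 TPM. The 4 had log2 fold changes of 0.63, 0.68, 0.43 and 0.63.

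**Figure D4:**
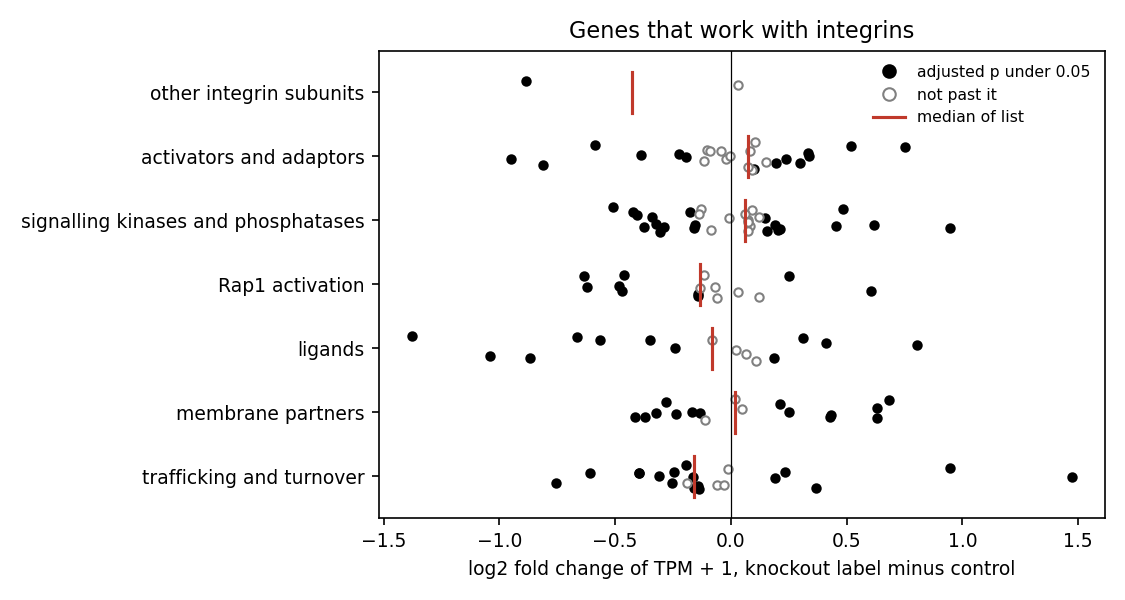
Log2 fold change of TPM + 1 (knockout label minus control) of 126 tested genes in 7 lists related to integrins; filled points have a limma adjusted p under 0.05, and red bars mark list medians. Points lie on both sides of 0 in every list, and the median of each of the 6 further lists lies between -0.16 and 0.075.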

How the data were processed

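Poly(A) RNA was sequenced in 6 libraries. STAR 2.7.5a, bcl2fastq, DESeq2, HOMER 4.11.1 and the mm10 build are listed in the submitters' processing notes, without role or order. The authors deposited TPM per gene, and a second table of stabilized log2 values per library with their own log2 fold changes. That table also holds the p-values and adjusted p-values the authors deposited; which log2 transform they used, and how reads that match several genes were assigned, are not given in the sources used here.

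Genes with a TPM of at least 1 in at least 3 of 6 libraries were tested with limma 3.58.1 (R 4.3.3; mean-variance trend, two-sided, no covariates) on log2(TPM + 1), knockout label minus control, with Benjamini-Hochberg adjustment over all 11257 genes and a threshold of 0.05. The added 1 understates changes of low genes. The deposited unit is TPM, so this fit was used as the main one. TPM times length was divided by a step fitted to the low values of each library (59.4 to 75.5) and rounded to whole reads. Of the same low values, 100% lay within 0.1 of a whole number. An alternative was limma-voom on these reads. It called 6167 genes. Replicates were distinct libraries: chi-square per degree of freedom between them was 1.78 to 5.73. Ratios were compared by an exact permutation test, and Poisson intervals are at 95%. The fit was checked on simulated data. Named were every subunit, up to 4 genes per related list with the smallest adjusted p, and Tln1, Fermt3, Itgad, Icam1 and Nfil3. Members and lists were chosen with earlier results of these data known.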

Additional observations from a re-analysis of the deposited data

How the results depend on the processing

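The alternatives were a pseudocount of 0.1, no filter, a minimum of 5 TPM, 2 scalings, no variance trend, recovered reads, the authors' stabilized log2 values, chromosome centring, a replicate block and leaving out each library. Itgb2, Itgam, Itgax, Itga5, Itgav and Itgb5 kept their direction and stayed past the threshold in every alternative that tested them. Itgax could not be tested at a minimum of 5 TPM. In all other alternatives but the unfiltered fit, Itgax was tested only because its libraries labelled knockout passed the filter. Its passing there is therefore not separate support. Without the filter its log2 fold change was 1.03 (limma adjusted p = 9.78e-05). The log2 fold changes of these 6 subunits ranged from -0.66 to -0.59 for Itgb2, -0.41 to -0.14 for Itgam and 0.54 to 2.33 for Itgax. They were -0.33 to -0.24 for Itga5, -0.73 to -0.60 for Itgav and 0.17 to 0.24 for Itgb5. Itgb1 never passed. Itgal was reversed by chromosome centring (-0.075) and missed the threshold without the filter (adjusted p = 0.0537) and in 5 of 6 leave-one-out fits (range of all 6, 0.0100 to 0.101). The log2 difference of the Itgav to Itgb3 ratio was reversed on the authors' stabilized values (-0.57) and without knockout replicate 2 (-0.16; range with 1 library left out, -0.16 to 0.996). On the authors' stabilized values, the log2 differences of Itgal to Itgb2 (0.73), Itgax to Itgb2 (1.12), Itgav to Itgb1 (-0.64), Itgav to Itgb5 (-0.77) and Itgax to Itgam (0.71) were smaller than on TPM, with the same direction. The cause was not tested. The number of subunits called higher was 2 to 3, and called lower 4 to 5. Calls over all genes ranged from 4740 to 6167, and from 4740 to 5442 with 1 library left out.

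Same-numbered libraries did not deviate together (correlations -0.0578 to 0.00302), so the numbers were not taken as pairs. With the replicate block, 3 subunits were called higher and 4 lower, as without it, and 5297 genes were called in all. Depth limits Itgb3 and Itgax.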
